A study of Mus musculus with 18 samples.

Results

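The antiviral genes of the type I interferon program were followed across all groups of an RNA sequencing study of mouse macrophages. The 38 genes are a list of well-known interferon-stimulated genes, chosen with earlier results of these data known. They were matched by symbol to the deposited gene table, which holds 21380 gene identifiers, and all 38 were found. They are Ifit1, Ifit2 and Ifit3; Oas1a, Oas2, Oas3, Oasl1 and Oasl2; Mx1 and Mx2; Isg15, Herc6, Trim25 and Usp18; Ifih1, Dhx58, Zbp1, Eif2ak2 and Adar; Rsad2, Cmpk2, Samhd1, Slfn2 and Slfn5; Bst2, Rtp4 and Ifi27l2a; Parp9, Parp12, Parp14 and Dtx3l; Trim21 and Trim30a; and Ifi35, Ifi44, Xaf1, Phf11d and Sp100. The macrophages were Ldha knockout (KO) or wild type (WT), and were polarized for 24 h with IFN-gamma, polarized for 24 h with IL-4, or left untreated. There were 6 groups of 3 libraries: KO with IFN-gamma, WT with IFN-gamma, KO with IL-4, WT with IL-4, untreated KO and untreated WT. Each of the 3 KO and 3 WT animals gave 1 library for each of the 3 treatments, and the replicate number stands for the animal. All cells came from femur marrow grown for 7 days in DMEM with 15% serum and 30 ng/mL M-CSF, the growth factor that drives macrophage differentiation. No label names the strain, age or sex of the animals, the deletion strategy or the cytokine doses; the series title calls the deletion macrophage-specific.

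Type I interferons, IFN-alpha and IFN-beta, are released when a cell senses viral nucleic acid. They bind the receptor IFNAR1/IFNAR2, whose kinases JAK1 and TYK2 activate the transcription factor complex ISGF3, which binds the interferon-stimulated response element (ISRE) of antiviral genes. IFN-gamma, a type II interferon made mainly by T and NK cells, signals through another receptor to the gamma-activated site (GAS) of its target genes and switches on secondary factors such as IRF1 that also read ISRE-like sequence. Many antiviral genes therefore respond to both kinds of interferon in macrophages, while IL-4 signals through STAT6 and is known for alternative activation.

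Promoter sequence is shown first because the ISRE is the element for which these genes are known. The RefSeq promoter table (build GRCm38.p6) held 28 of the 38 genes, with 33 start sites. In the 250 bases before the start, the ISRE core (GAAA, any 2 bases, then GAAA), searched on both strands, was found in 9 of the 28 genes (32.1%), against 3.46% of all 27025 genes in the table. The 9 genes were Isg15, Oas3, Oas1a, Trim30a, Bst2, Slfn5, Rsad2, Ifit3 and Ifit1. The GAS TTCNNNGAA, which reads the same on both strands, was found in Samhd1, Oas1a, Bst2, Eif2ak2 and Ifit2, or 5 of 28 genes (17.9%), against 8.13% of all genes. For 28 of the 33 start sites, the bases after the start lie in an annotated GENCODE transcript of the gene. A match is a run of letters and not a shown binding site. The 150 bases before the start are printed for 5 genes that hold the ISRE core and for Oasl1, the gene with the largest IFN-gamma response, in which neither motif was found. Each is written 5′ to 3′ on the strand of its gene, and capitals mark the motif matches.
Isg15, chr4:156200819-156200968, minus strand: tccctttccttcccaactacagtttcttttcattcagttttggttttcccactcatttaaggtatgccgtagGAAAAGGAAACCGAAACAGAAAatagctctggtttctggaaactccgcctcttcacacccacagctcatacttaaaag
Ifit1, chr19:34640739-34640888, plus strand: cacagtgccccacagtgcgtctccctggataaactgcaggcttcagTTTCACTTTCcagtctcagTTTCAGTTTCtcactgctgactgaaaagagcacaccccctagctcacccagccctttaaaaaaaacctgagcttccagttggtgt
Rsad2, chr12:26456453-26456602, minus strand: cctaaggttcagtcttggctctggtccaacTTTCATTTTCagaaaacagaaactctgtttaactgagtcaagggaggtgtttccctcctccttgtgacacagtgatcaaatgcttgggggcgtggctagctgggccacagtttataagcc
Oas1a, chr5:120907526-120907675, minus strand: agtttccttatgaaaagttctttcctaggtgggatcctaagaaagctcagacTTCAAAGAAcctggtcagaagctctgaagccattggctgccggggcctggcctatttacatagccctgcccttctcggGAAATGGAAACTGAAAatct
Bst2, chr8:71537473-71537622, minus strand: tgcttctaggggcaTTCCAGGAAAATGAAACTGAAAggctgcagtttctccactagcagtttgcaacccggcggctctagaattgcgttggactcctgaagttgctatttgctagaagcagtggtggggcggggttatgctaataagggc
Oasl1, chr5:114923090-114923239, plus strand: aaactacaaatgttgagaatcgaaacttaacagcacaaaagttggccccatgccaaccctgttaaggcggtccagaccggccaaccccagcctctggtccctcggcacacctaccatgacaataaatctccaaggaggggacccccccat
In Isg15, 3 overlapping cores form 1 block, and in Ifit1 a pair of separate cores lie on the opposite strand, so each reads TTTC, 2 bases, TTTC here. In Oas1a the capitals near the start are a pair of overlapping ISRE cores and those farther upstream are the GAS. In Bst2 the GAS runs into the ISRE block, and the capitals cover both.

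Levels are normalized counts, that is, read counts that the authors divided by 1 size factor per library. Recovered depth was 9.77 to 49.5 M reads per library, with a median of 30.9 M. The lowest depth was that of the IL-4 library of WT animal 2. Over all genes tested, its log2 deviations from the group mean also had the largest SD of any library, 0.57. KO libraries had 2128 to 10124 normalized counts of Ldha, the targeted gene, and WT libraries had 10712 to 38896, with no overlap within a treatment. Lyz2, the lysozyme gene of macrophages, was at 173 to 873 in KO libraries and at 200017 to 700319 in WT libraries. The summed level of 7 macrophage markers was 180780 to 271666 in every library. Some libraries stood apart for the antiviral genes. In KO animal 1, all 38 genes lay below their group mean both in the untreated and in the IL-4 library, and with IL-4 the median deviation was -0.44 on the log2 scale. Within their group of 3, 37 of 38 genes were lowest in that IL-4 library, against 39.5% of 10018 other genes with a mean of at least 100. WT animal 1 was lowest for 32 of 38 genes with IFN-gamma, against 46.7% of other genes, and highest for 34 of 38 with IL-4, against 39.1%. Untreated, 36 of 38 genes were lowest in KO animal 1, against 38.8% of other genes, and 33 of 38 were lowest in WT animal 2, against 31.0%. The counts of genes raised by IL-4 are given with and without these libraries.

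**Figure D1:**
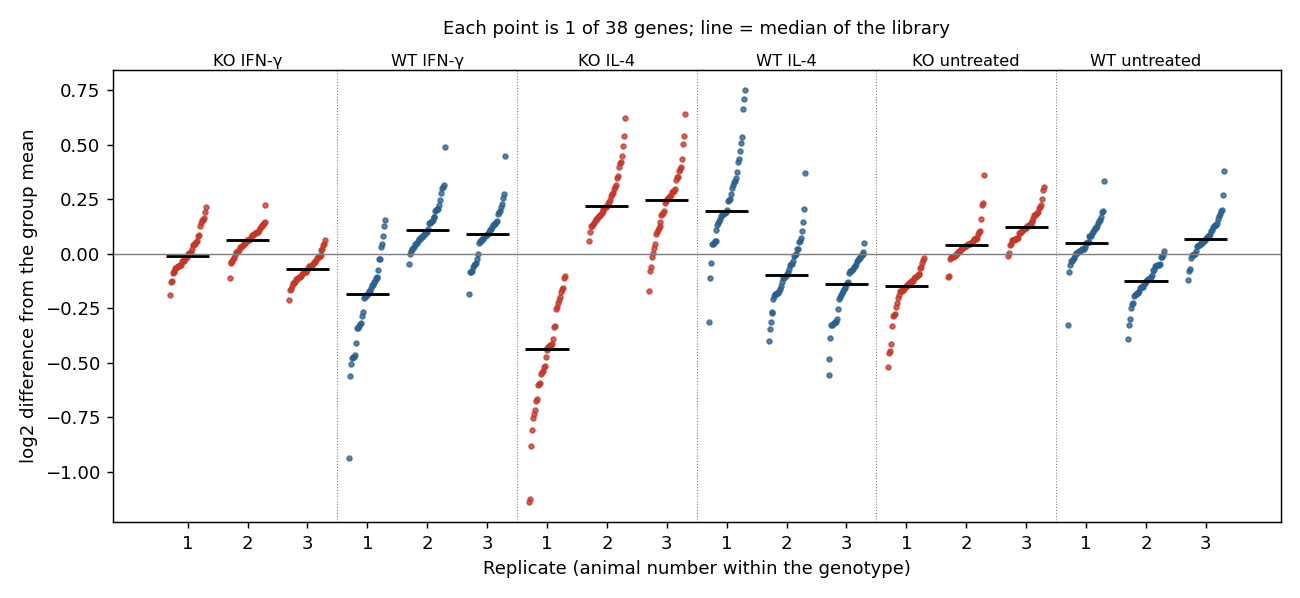
Deviation of each of the 38 genes from its group mean (log2 scale, y axis) in each library (replicates 1 to 3 of each group along the x axis). Dotted lines separate the groups, and the short line is the library's median. All points of KO animal 1 lie below 0 untreated and with IL-4, where the median is -0.44.

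The first question was how the antiviral genes respond to IFN-gamma. All 38 genes were higher with IFN-gamma than untreated, in KO and in WT macrophages, by limma's moderated test with Benjamini-Hochberg adjustment over 14288 genes. Of all genes tested, 28.3% were higher in KO and 31.4% in WT, and 55.8% and 62.4% passed in either direction. Because the list was chosen with earlier results known, such shares, here and below, are a description and not an independent contrast. The median log2 change over the 38 genes was 2.83 in KO and 2.73 in WT, against -0.01 over all genes in each genotype. The changes ran between 1.23 and 7.10 in KO and between 1.14 and 7.17 in WT, and the highest adjusted p was 3.72e-07 in KO and 5.64e-06 in WT, both for Oas2. Every alternative setting gave 38 of 38 higher in both genotypes.

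**Figure D2:**
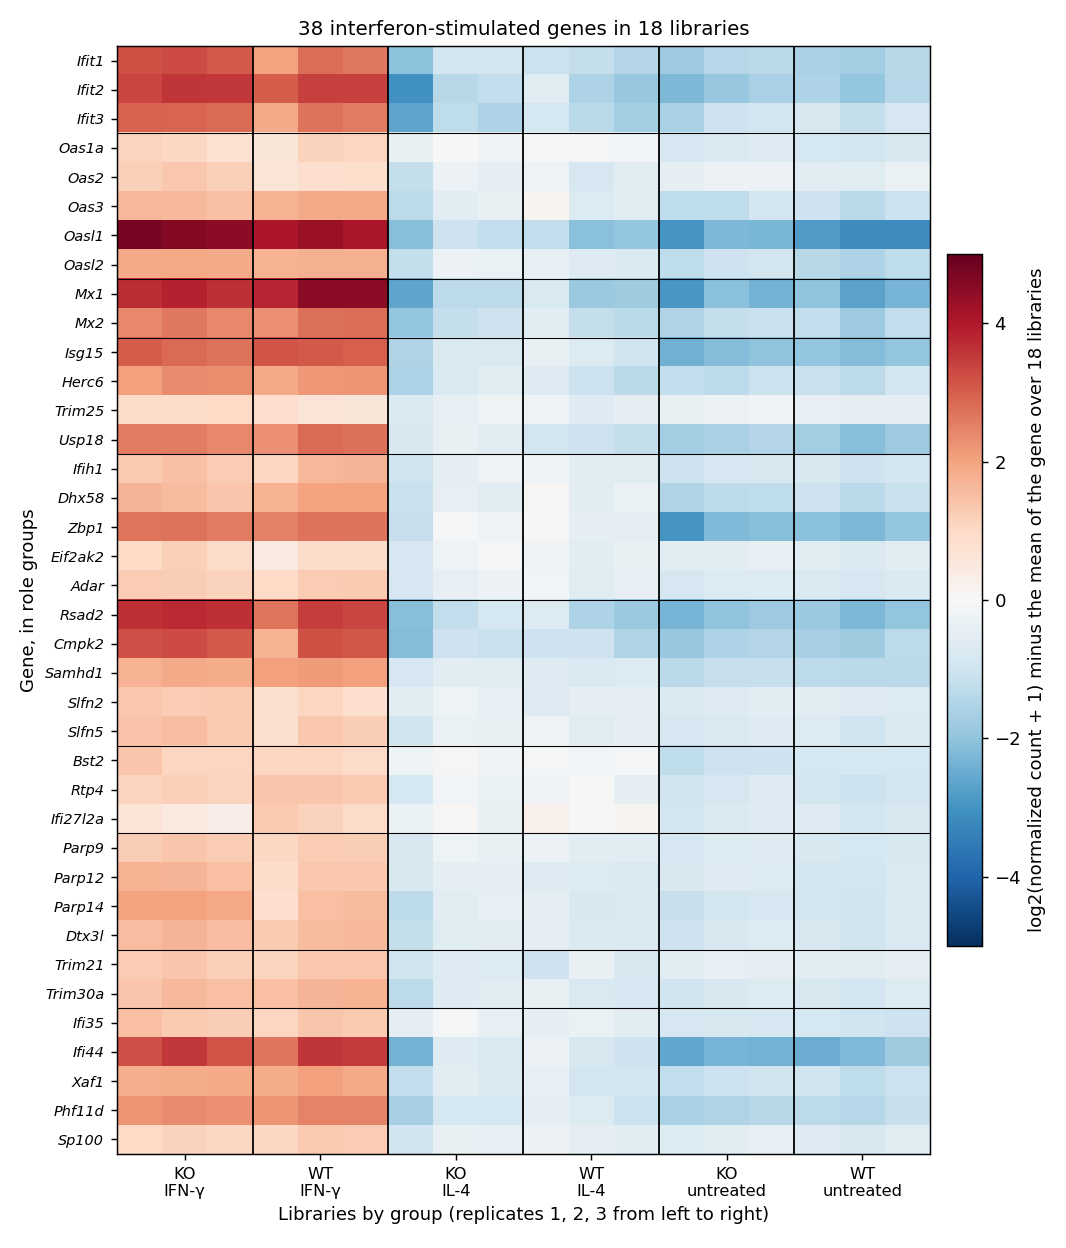
log2 level of each of the 38 genes relative to its mean over the 18 libraries (colour), with genes in role groups down the page and libraries by group across it. All 38 genes are higher in the IFN-gamma libraries than in the untreated libraries of the same genotype.

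The oligoadenylate synthetases make oligoadenylates on double-stranded RNA, which activate the nuclease RNase L, and Oasl1 is a family member without that enzyme activity. Oasl1 (chr5:114923240-114937915, plus strand) had 29425, 26539 and 24262 normalized counts in IFN-gamma-treated KO macrophages, against 142, 228 and 225 in untreated KO macrophages. In WT it had 17989, 21802 and 18612 with IFN-gamma, against 153, 127 and 123 untreated. These were the largest changes of the list, with a ratio of means of 135 in KO and 145 in WT; the log2 changes were 7.10 ± 0.251 (SE, adjusted p = 1.70e-13) and 7.17 ± 0.251 (adjusted p = 1.15e-13). The other 4 genes of the group rose less: the group's median log2 change was 2.74 in KO and 2.997 in WT, and Oas2 was lowest, at 1.62 in KO and 1.27 in WT. Mx1, a dynamin-like GTPase that blocks influenza virus in the nucleus, had 18535, 21098 and 18170 normalized counts in IFN-gamma-treated KO macrophages, against 194, 342 and 284 in untreated KO macrophages. In the WT libraries there were 20139, 33105 and 32711 with IFN-gamma, against 363, 229 and 287 untreated. Its log2 change was 6.17 ± 0.337 in KO (adjusted p = 4.21e-11) and 6.60 ± 0.337 in WT (adjusted p = 1.44e-11), and Mx2, the cytoplasmic paralog on the same chromosome, rose by 3.75 and 4.04.

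Among the nucleotide enzymes, Rsad2 encodes viperin, which makes a chain-terminating nucleotide, and Cmpk2 is a mitochondrial nucleotide kinase encoded 12.8 kb away on the opposite strand. Rsad2 had 99703, 105456 and 100684 normalized counts in IFN-gamma-treated KO macrophages, against 1591, 1991 and 2249 in untreated KO macrophages. WT cells had 51316, 86600 and 81453 with IFN-gamma, against 2203, 1678 and 2036 untreated. The log2 change of Rsad2 was 5.73 ± 0.289 in KO (adjusted p = 1.51e-11) and 5.18 ± 0.289 in WT (adjusted p = 4.66e-11), and that of Cmpk2 was 4.81 and 4.27. Samhd1, which hydrolyses deoxynucleotides, rose by 3.06 in KO and 3.40 in WT, and the Schlafen genes Slfn2 and Slfn5 by 1.54 to 2.18. The IFIT genes encode proteins that bind foreign RNA, IFIT1 by its unmethylated cap. Ifit2 had 98757, 114698 and 111131 normalized counts in IFN-gamma-treated KO macrophages, against 2009, 2561 and 3125 in untreated KO macrophages. WT macrophages had 78483, 104142 and 102899 with IFN-gamma, against 3310, 2517 and 3565 untreated, so that the log2 change was 5.42 ± 0.362 in KO (adjusted p = 6.70e-10) and 4.93 ± 0.362 in WT (adjusted p = 1.87e-09). Ifit1 rose by 4.70 in KO and 4.06 in WT and Ifit3 by 4.11 and 3.36, and all 3 lie within 1 cluster on chromosome 19.

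Isg15 is a ubiquitin-like protein attached to other proteins with the help of Herc6, and Usp18 removes it and also restrains the type I receptor. Isg15 (chr4:156199455-156200796, minus strand) had 19142, 16902 and 15467 normalized counts in IFN-gamma-treated KO macrophages, against 442, 531 and 590 in untreated KO macrophages. In WT it had 20859, 19724 and 18617 with IFN-gamma, against 608, 524 and 597 untreated. Its log2 change was 5.05 ± 0.180 in KO (adjusted p = 1.80e-13) and 5.10 ± 0.180 in WT (adjusted p = 1.25e-13). Usp18 rose by 4.13 in KO and 4.53 in WT and Herc6 by 3.45 and 3.22, whereas Trim25, a ubiquitin ligase of the RIG-I pathway, had the smallest change of all 38 genes, 1.23 and 1.14. Ifi44 rose by 5.74 ± 0.348 in KO (adjusted p = 1.74e-10) and by 5.40 ± 0.348 in WT (adjusted p = 3.24e-10), the largest change among the remaining genes of the list. Zbp1, a sensor of Z-form nucleic acid that can start necroptosis, rose by 5.09 ± 0.232 in KO (adjusted p = 4.04e-12) and 4.74 ± 0.232 in WT (adjusted p = 8.24e-12). The other sensors and double-stranded RNA enzymes rose by less: Ifih1 (MDA5) by 2.24 and 2.40, Dhx58 (LGP2) by 2.92 and 3.09, Eif2ak2 (PKR) by 1.54 and 1.39, and the RNA editor Adar by 1.95 and 1.97. The group medians of the remaining roles were 1.98 in KO and 1.93 in WT for Bst2 (tetherin), Rtp4 and Ifi27l2a, 2.39 and 2.14 for the ADP-ribosylation genes, and 2.04 and 2.13 for Trim21 and Trim30a.

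Per kilobase of exon, which allows genes to be set against each other, Ifit2 led in IFN-gamma-treated KO macrophages with 27552 normalized counts, followed by Bst2 with 25947, Rsad2 with 23517 and Isg15 with 22712. In IFN-gamma-treated WT macrophages the order was Isg15 with 26102, Ifit2 with 24236, Bst2 with 23394 and Ifi27l2a with 20591. Untreated, Ifi27l2a and Bst2 were highest, at 5530 and 5319 per kilobase in KO and at 5410 and 6255 in WT, and Ifi44 and Mx2 were among the lowest, at 26.3 and 35.0 in KO and at 33.0 and 32.1 in WT. The genes whose promoter held the ISRE core had a median log2 response to IFN-gamma of 2.74 in KO and 2.997 in WT (9 genes), and the 19 genes whose window lacked it had 2.43 and 2.40. The 2 sets overlapped over most of their range, 1.71 to 5.73 with the core and 1.23 to 7.10 without it in KO, and these values are a description with no test.

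**Figure D3:**
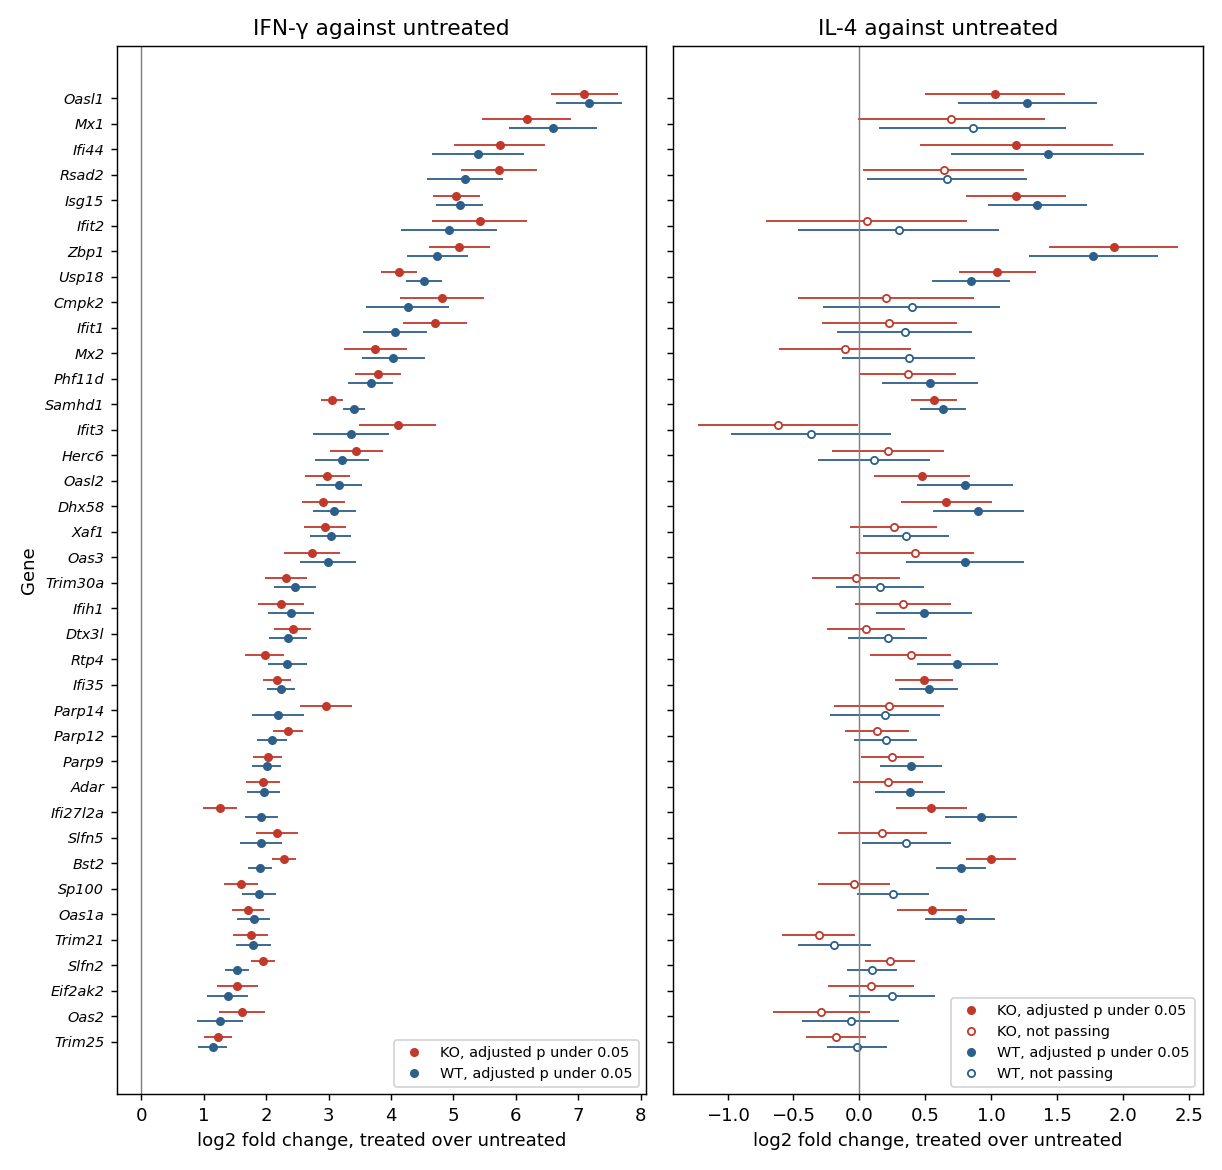
log2 fold change of each of the 38 genes, treated over untreated, in KO and WT macrophages (left panel IFN-gamma, right panel IL-4; bars are 95% confidence intervals and filled points passed the test). All points of the IFN-gamma panel lie at 1.14 or above; in the IL-4 panel Zbp1 is the farthest from 0.

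IL-4 raised part of the list by much smaller amounts. With IL-4, 12 of the 38 genes were higher in KO (31.6%, against 15.8% of all genes) and 18 in WT (47.4%, against 16.3% of all genes), and none was lower in either genotype. Of all genes, 14.5% were lower in KO and 14.0% in WT, and 30.2% and 30.3% passed in either direction. The median log2 change was 0.26 in KO and 0.39 in WT, against 0.00 and -0.01 over all genes. The 12 genes called in KO were all among those called in WT (100% of the KO list and 66.7% of the WT list), and the genes called in WT alone were Adar, Ifih1, Oas3, Parp9, Phf11d and Rtp4. The count in KO depended on the IL-4 library of KO animal 1. Without it, 25 genes were higher in KO and the median was 0.57, and all of these 6 passed in KO as well, with adjusted p-values between 0.000843 (Rtp4) and 0.0186 (Ifih1). Without the untreated library of KO animal 1, 10 genes were higher in KO, and without all 3 libraries of that animal, a setting chosen after seeing the data, 16 genes were higher and the median was 0.47. In WT, 14 genes were higher without the IL-4 library of WT animal 1 (median 0.31) and 14 without the untreated library of WT animal 2 (median 0.36). Without the IL-4 library of WT animal 2, which had the lowest depth, 17 were higher and 1 was lower (median 0.47). With the animal as a block, 13 genes were higher in KO and 20 in WT: Rtp4 was added in KO (0.39, adjusted p = 0.0202), Mx1 (0.86, adjusted p = 0.0275) and Xaf1 (0.36, adjusted p = 0.0482) in WT, and Trim21 was lower in KO (-0.31, adjusted p = 0.0372). Libraries of the same animal enter both sides of such a comparison, which is why the block is given.

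The largest changes with IL-4 were those of Zbp1, Isg15, Ifi44, Usp18, Oasl1 and Bst2 in KO and of Zbp1, Ifi44, Isg15, Oasl1, Ifi27l2a and Dhx58 in WT. Zbp1 had 678, 1443 and 1295 normalized counts in IL-4-treated KO macrophages, against 197, 331 and 346 in untreated KO macrophages. In the WT libraries there were 1547, 1111 and 1088 with IL-4, against 362, 323 and 396 untreated, and the groups did not overlap in either genotype. Its log2 change was 1.93 ± 0.232 in KO (adjusted p = 5.20e-06) and 1.78 ± 0.232 in WT (adjusted p = 1.47e-05). Isg15 had 825, 1421 and 1411 normalized counts in IL-4-treated KO macrophages, against 442, 531 and 590 in untreated KO macrophages. In WT it had 1826, 1466 and 1183 with IL-4, against 608, 524 and 597 untreated, again without overlap. It rose by 1.19 ± 0.180 in KO (adjusted p = 5.71e-05) and 1.35 ± 0.180 in WT (adjusted p = 1.76e-05). Usp18 rose by 1.05 ± 0.139 in KO (adjusted p = 1.44e-05) and 0.85 ± 0.139 in WT (adjusted p = 0.000144). Bst2, which tethers budding virus to the cell surface, had 8931, 10689 and 9182 normalized counts in IL-4-treated KO macrophages, against 4324, 5044 and 5043 in untreated KO macrophages. WT macrophages had 9968, 9423 and 9576 with IL-4, against 5553, 5692 and 5699 untreated, which are log2 changes of 1.00 ± 0.0908 in KO (adjusted p = 2.06e-07) and 0.77 ± 0.0908 in WT (adjusted p = 4.58e-06).

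Of the oligoadenylate synthetase group, 3 of 5 genes rose in KO and 4 of 5 in WT. Oasl1 rose by 1.03 ± 0.251 in KO (adjusted p = 0.00428) and 1.28 ± 0.251 in WT (adjusted p = 0.000804), with Oas1a at 0.55 and 0.76 and Oasl2 at 0.48 and 0.80. Ifi44 rose by 1.19 ± 0.348 in KO (adjusted p = 0.0144) and 1.43 ± 0.348 in WT (adjusted p = 0.00445). Its KO values, 168, 568 and 523 with IL-4, against 143, 173 and 168 untreated, overlapped because the IL-4 value of KO animal 1 lay within the untreated range. Ifi27l2a, a small membrane protein, rose by 0.54 ± 0.128 in KO (adjusted p = 0.00331) and 0.92 ± 0.128 in WT (adjusted p = 2.72e-05), Dhx58 by 0.66 ± 0.164 (adjusted p = 0.00482) and 0.90 ± 0.164 (adjusted p = 0.000384), Samhd1 by 0.56 and 0.64, and Ifi35 by 0.49 and 0.53. In KO, leaving out 1 library ended the calls of Ifi44 (adjusted p up to 0.0902, without the IL-4 library of animal 2 or 3 or the untreated library of animal 1) and of Oasl2 (up to 0.227, without the IL-4 library of animal 2 or 3 or the untreated library of animal 1 or 2). In WT it ended those of Adar (up to 0.129), Ifih1 (up to 0.145), Phf11d (up to 0.0998) and Parp9 (up to 0.0557), each without more than 1 of the 6 libraries in turn, among them the IL-4 library of animal 1. None of the IFIT, Mx and Trim21/Trim30a genes passed the test in either genotype. Ifit1 was at 0.23 in KO and 0.34 in WT and Ifit3 at -0.62 and -0.37. Without the IL-4 library of KO animal 1, Ifit1 (0.60, adjusted p = 0.0239) and Mx1 (1.14, adjusted p = 0.00978) passed in KO. No gene of the list differed between KO and WT in its response to IL-4: 0 of 38 passed by limma, DESeq2 or edgeR, and 0.00700% of all genes passed by limma. An unadjusted p under 0.05 in limma was reached by 0 of the 38, against 774 of all 14288 genes. The median difference in response, KO minus WT, was -0.16, and -0.02 without the libraries of KO animal 1. The smallest p-values were those of Ifi27l2a (-0.38, 95% confidence interval -0.76 to 0.0040), Bst2 (0.22, -0.046 to 0.50), Rtp4 (-0.35, -0.79 to 0.081), Sp100 (-0.30, -0.68 to 0.088) and Mx2 (-0.49, -1.20 to 0.23), with adjusted p-values between 0.925 and 0.986.

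KO and WT macrophages were then compared within each treatment. The KO libraries were low in Lyz2 as well as in Ldha, and the parts of the 2 genes in any difference cannot be told apart. With IFN-gamma, 4 of the 38 genes were higher in KO (Ifit1, Parp14, Parp12 and Slfn2) and 2 were lower (Ifi27l2a and Samhd1). That is 15.8% of the list, below the 27.9% of all genes that passed (14.3% higher and 13.6% lower). An unadjusted p under 0.05 in limma was reached by 9 of the 38 members, against 5557 of all 14288 genes. The median log2 difference, KO over WT, was 0.07, against 0.01 over all genes. By role, 1 of 3 IFIT genes, 2 of 4 ADP-ribosylation genes and 1 of 5 nucleotide and Schlafen genes were higher, and 1 of 5 nucleotide and Schlafen genes and 1 of 3 membrane genes were lower. None of the 5 oligoadenylate synthetase genes, the 2 Mx genes, the 4 genes of ISG15 conjugation and the 5 sensors and double-stranded RNA enzymes passed.

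Parp12 (chr6:39086410-39118349, minus strand) and Parp14 (chr16:35832874-35871544, minus strand) encode mono-ADP-ribosyltransferases. Parp12 had 13379, 12966 and 11514 normalized counts in IFN-gamma-treated KO macrophages, against 7587, 10245 and 10153 in IFN-gamma-treated WT macrophages. The groups did not overlap; the KO mean was 135% of the WT mean, and the log2 difference was 0.45 ± 0.114 (SE, adjusted p = 0.00763). Parp14 had 59520, 61114 and 57116 in KO, against 26585, 42711 and 44805 in WT, so that every KO library was above every WT library. Its KO mean was 156% of WT (log2 difference 0.68 ± 0.198, adjusted p = 0.0171). Parp9 and Dtx3l, whose proteins form a complex, were at 0.13 and 0.09 and did not pass. Slfn2 (chr11:83065112-83070678, plus strand), a Schlafen gene needed for immune cell quiescence in mice, had 3071, 2868 and 2925 in KO, against 2077, 2493 and 2156 in WT, also without overlap. Its mean was 132% of WT (0.40 ± 0.0898, adjusted p = 0.00315). Ifit1 (chr19:34640871-34650009, plus strand) had 24460, 25987 and 22907 in KO, against 10931, 18777 and 16734 in WT. The groups did not overlap, but WT animal 1 was far below the other 2, and the difference of 0.69 ± 0.243 (158% of WT) had an adjusted p of 0.0408.

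Ifi27l2a (chr12:103442167-103443680, minus strand) had 7030, 6042 and 5474 normalized counts in IFN-gamma-treated KO macrophages, against 10575, 9672 and 8353 in IFN-gamma-treated WT macrophages. All KO values were below all WT values; the KO mean was 64.8% of WT (log2 difference -0.63 ± 0.128, adjusted p = 0.00166). Samhd1 (chr2:157097533-157135265, minus strand) had 83145, 91820 and 89140 in KO, against 102464, 107726 and 102293 in WT, also without overlap. Its mean was 84.5% of WT (-0.24 ± 0.0824, adjusted p = 0.0353). Ifi27l2a, Parp12 and Slfn2 passed in all 17 alternatives, while Samhd1 lost the call in 10 of 17 (adjusted p 0.0136 to 0.125), Ifit1 in 6 (0.0159 to 0.203) and Parp14 in 2. Without the IFN-gamma library of WT animal 1, Ifit1 was at 0.46 (adjusted p = 0.203) and Parp14 at 0.44 (adjusted p = 0.104), which left 2 genes higher and 1 lower. Without that of KO animal 2, 2 genes were also higher, with Ifit1 at an adjusted p of 0.110 and Parp14 at 0.0505. Ifit1 was lost as well without the IFN-gamma library of KO animal 1 (0.0936), KO animal 3 (0.0645) or WT animal 3 (0.0524), with differences of 0.69 to 0.77. Samhd1 was lost without that of KO animal 1 (0.125), KO animal 3 (0.0632) or WT animal 1, 2 or 3 (0.0561, 0.102 and 0.0582), with differences of -0.26 to -0.20. Each of these settings also tests fewer libraries.

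The other genes with the best-known antiviral roles did not pass under IFN-gamma. Mx1 had 18535, 21098 and 18170 normalized counts in KO, against 20139, 33105 and 32711 in WT; the KO mean was 67.2% of WT, and the log2 difference was -0.54 ± 0.337 (adjusted p = 0.255, 95% confidence interval -1.25 to 0.17). Rsad2 was higher in each KO library than in any WT library, but its difference of 0.52 ± 0.289 did not pass (adjusted p = 0.200). Isg15 was at -0.20 ± 0.180 (adjusted p = 0.431), Usp18 at -0.12 ± 0.139 (adjusted p = 0.564) and Oas1a at 0.03 ± 0.125 (adjusted p = 0.885). Oas2 was at 0.47 (adjusted p = 0.0514). The summed level of the 38 genes was 783232, 820715 and 770175 normalized counts in IFN-gamma-treated KO macrophages, against 622550, 792859 and 768792 in WT. WT animal 1 was the lowest of the 6, and the other 5 lay close together.

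**Figure D4:**
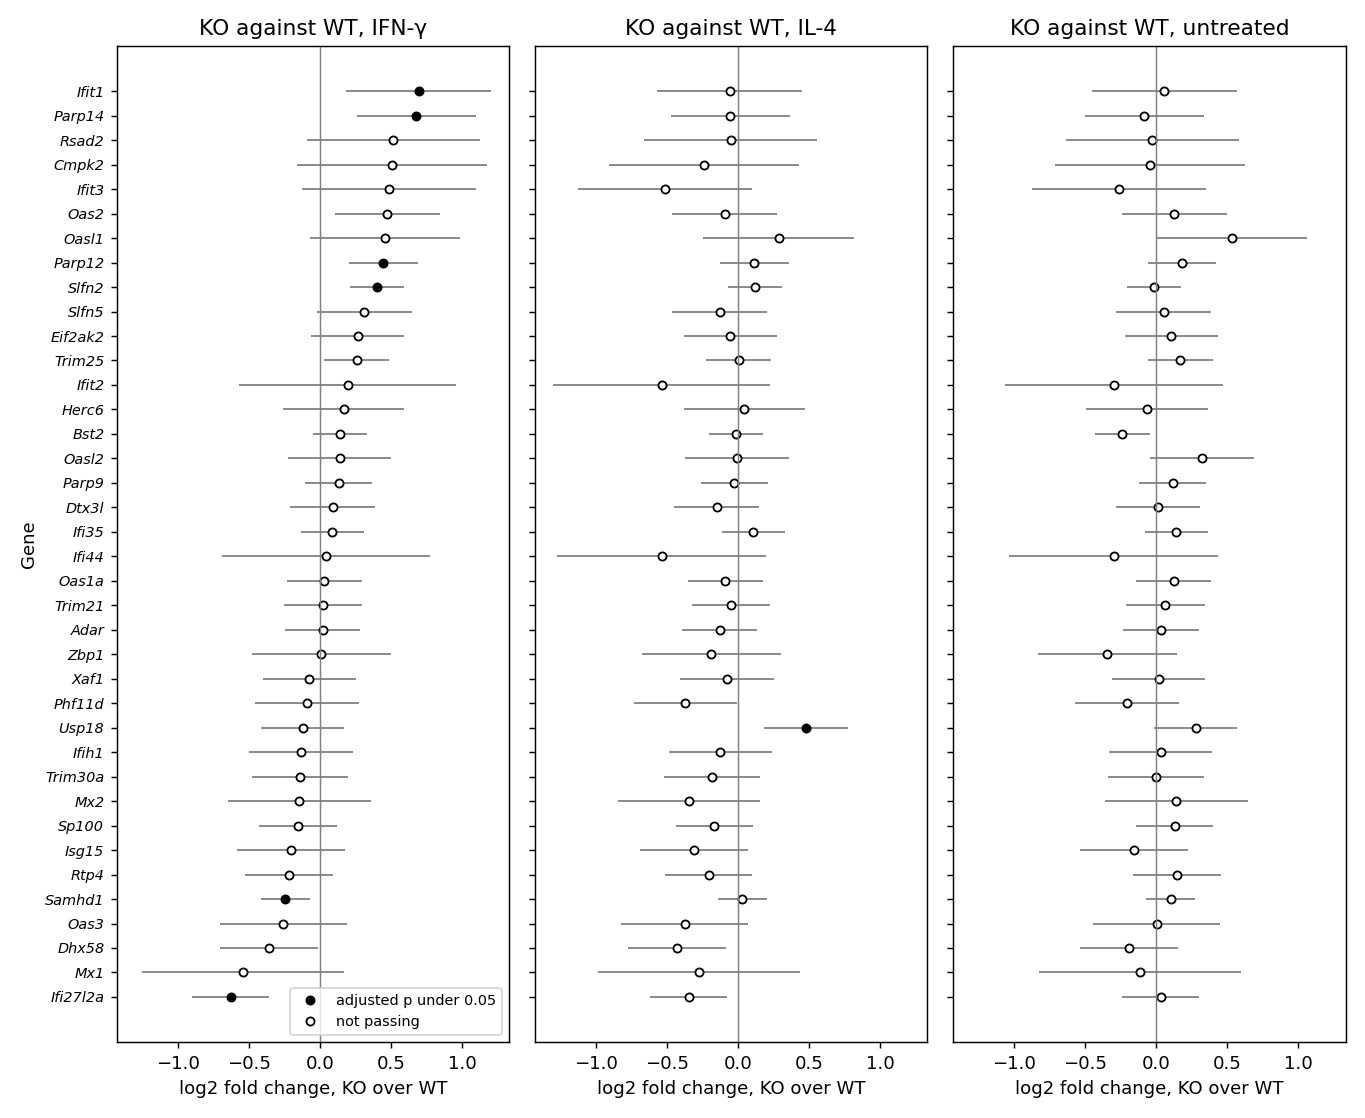
log2 fold change of each of the 38 genes, KO over WT, with IFN-gamma, with IL-4 and untreated (bars are 95% confidence intervals; filled points passed the test). With IFN-gamma 4 genes passed above 0 and 2 below 0; with IL-4 Usp18 passed; untreated none did.

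Untreated, KO and WT macrophages did not differ in any of the 38 genes past the threshold: 0 passed by limma, against 1.98% of all genes (1.46% higher and 0.525% lower). An unadjusted p under 0.05 was reached by 2 of the 38, against 1702 of all 14288 genes. The median log2 difference was 0.03. The smallest p-values were those of Bst2 (-0.24 ± 0.0908, adjusted p = 0.257), Oasl1 (0.53 ± 0.251, adjusted p = 0.418), Usp18 (0.28 ± 0.139, adjusted p = 0.458), Oasl2 (0.32 ± 0.173, adjusted p = 0.516) and Parp12 (0.18 ± 0.114, adjusted p = 0.615). Bst2 had 4324, 5044 and 5043 normalized counts in untreated KO macrophages, against 5553, 5692 and 5699 in untreated WT macrophages, without overlap. Isg15 was at -0.15 ± 0.180 (adjusted p = 0.858), Ifit1 at 0.06 ± 0.243 (adjusted p = 0.974), Mx1 at -0.11 ± 0.337 (adjusted p = 0.961), Rsad2 at -0.03 ± 0.289 (adjusted p = 0.991) and Oas1a at 0.12 ± 0.125 (adjusted p = 0.818). For Mx1 the 95% confidence interval ran between -0.82 and 0.60 on the log2 scale.

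With IL-4, Usp18 (chr6:121245906-121270917, plus strand) was the only gene of the list to pass. It had 868, 1157 and 1008 normalized counts in IL-4-treated KO macrophages, against 777, 731 and 658 in IL-4-treated WT macrophages. The groups did not overlap and the KO mean was 140% of WT (log2 difference 0.48 ± 0.139, adjusted p = 0.0477), but the call was lost in 9 of 17 alternatives (adjusted p 0.0184 to 0.181). Leaving out the IL-4 library of KO animal 2 or 3 or of WT animal 1, 2 or 3 was enough to lose it, with differences of 0.38 to 0.53. The 1 gene called is 2.63% of the list, against 6.59% of all genes in either direction (3.46% higher and 3.13% lower). An unadjusted p under 0.05 in limma was reached by 4 of the 38 members, against 3121 of all 14288 genes. The median difference over the list was -0.11, and 30 of 38 estimates lay below 0; without the libraries of KO animal 1 the median was 0.10 and none passed. Isg15 was at -0.31 ± 0.180 (adjusted p = 0.328), Ifit1 at -0.06 ± 0.243 (adjusted p = 0.920), Mx1 at -0.28 ± 0.337 (adjusted p = 0.680), Rsad2 at -0.05 ± 0.289 (adjusted p = 0.942) and Oas1a at -0.09 ± 0.125 (adjusted p = 0.725). The sign of Ifit1, Mx1, Rsad2 and Oas1a turned without KO animal 1.

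**Figure D5:**
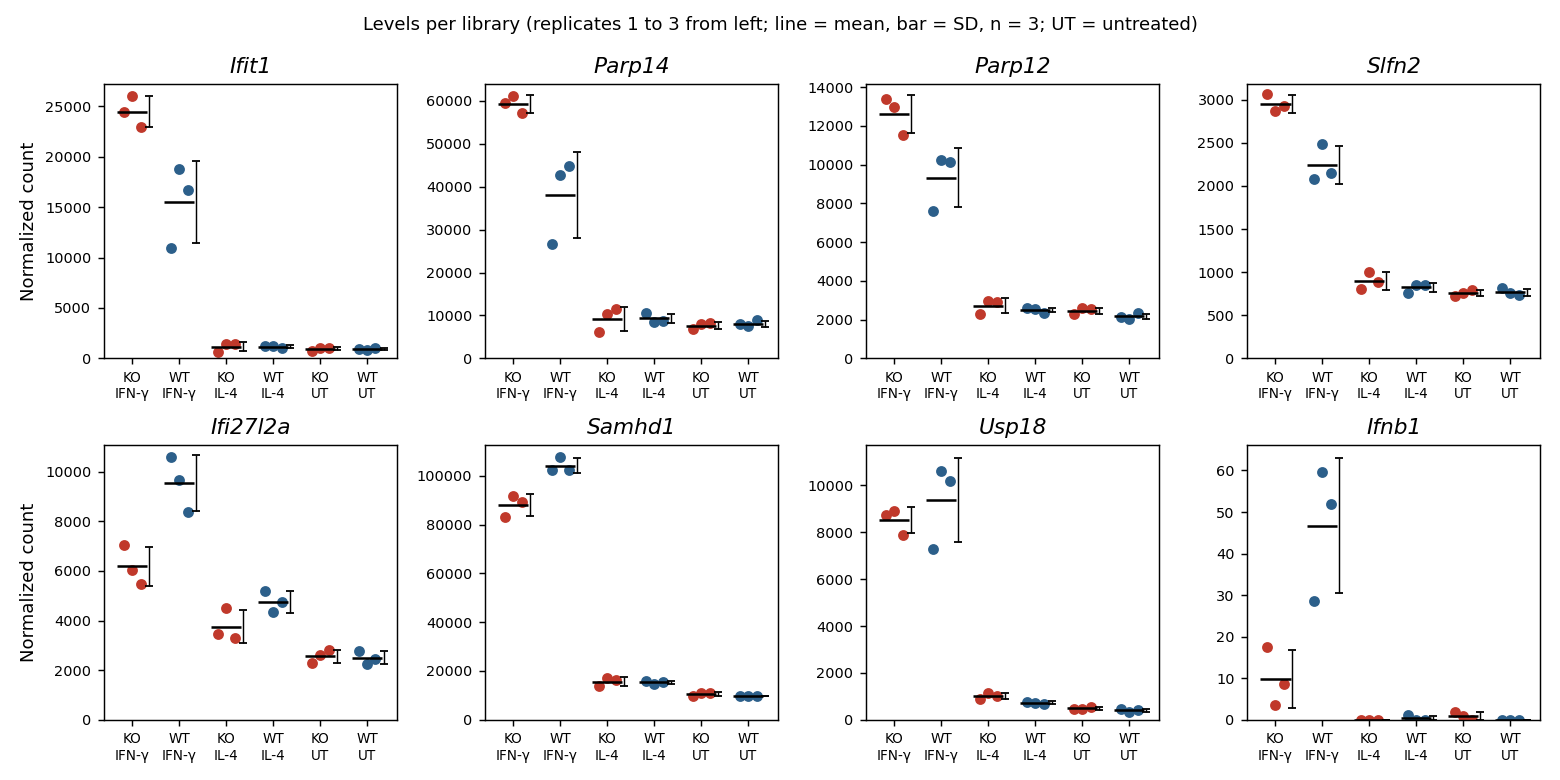
Normalized counts (y axis, linear) of Ifit1, Parp14, Parp12, Slfn2, Ifi27l2a, Samhd1, Usp18 and Ifnb1 in the 3 libraries of each group; the line is the mean and the bar the SD (n = 3). With IFN-gamma the KO points of Ifit1, Parp14, Parp12 and Slfn2 lie above all WT points and those of Ifi27l2a, Samhd1 and Ifnb1 below them.

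The response to IFN-gamma itself was compared between genotypes as KO response minus WT response. Of the 38 genes, 1 had a larger response in KO (Slfn2) and 1 a smaller one (Ifi27l2a), together 5.26% of the list, against 9.15% of all genes (4.30% larger and 4.84% smaller). An unadjusted p under 0.05 in limma was reached by 5 of the 38 members, against 3320 of all 14288 genes. Slfn2 was 3.88 times its untreated mean in KO and 2.91 times in WT, a difference in response of 0.42 ± 0.127 on the log2 scale (adjusted p = 0.0476). Ifi27l2a was 2.41 times its untreated mean in KO and 3.81 times in WT, a difference of -0.66 ± 0.181 (adjusted p = 0.0303). Both calls depended on the setting: Slfn2 was lost in 13 of 23 alternatives (adjusted p 0.0205 to 0.150) and Ifi27l2a in 9 of 23 (0.00928 to 0.0912). Slfn2 was lost when any 1 of the 12 libraries other than the IFN-gamma library of WT animal 2 was left out, with differences of 0.37 to 0.45. Ifi27l2a was lost without the IFN-gamma libraries of KO animals 2 and 3 and WT animals 1 and 2, or the untreated libraries of animals 2 and 3 of either genotype, each left out in turn, with differences of -0.65 to -0.57. With the animal as a block, Samhd1 passed as well (-0.35, adjusted p = 0.0195; without the block 0.0743). Parp14 was at 0.76 (adjusted p = 0.103), Ifit3 at 0.75 (adjusted p = 0.291) and Ifit1 at 0.64 (adjusted p = 0.282), and none of them passed. The median difference in response over the list was 0.0012.

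The genes upstream of the list were examined in the same fit. Of 17 genes of type I interferon ligands listed, Ifnb1 and Ifnk were in the table used here and only Ifnb1 was tested. Ifnb1, which encodes IFN-beta (chr4:88522025-88522774, minus strand), had 17.4, 3.46 and 8.70 normalized counts in IFN-gamma-treated KO macrophages, against 28.5, 59.7 and 51.9 in IFN-gamma-treated WT macrophages. These values rest on 31 reads in the 3 IFN-gamma-treated KO libraries and 126 in the 3 IFN-gamma-treated WT libraries, and the groups did not overlap. The log2 difference was -2.30 ± 0.569 (adjusted p = 0.00627), and it passed in all 16 alternatives that tested the gene (adjusted p 0.000297 to 0.0393). Without IFN-gamma there were 3 reads in the untreated KO libraries and 0 in the untreated WT libraries, so no fold change against untreated cells is given. Of the 7 genes of the receptor, its kinases and ISGF3, IFN-gamma raised 6 in KO and 7 in WT. Stat2 rose by 2.75 in KO and 2.48 in WT, and Tyk2 by 1.19 and 1.34. Between genotypes, 2 of the 7 were lower in KO under IFN-gamma, where 13.6% of all genes were lower. Ifnar1, the receptor chain, had 4667, 4795 and 4765 normalized counts in KO, against 8337, 6314 and 6482 in WT, without overlap (-0.56 ± 0.0939, adjusted p = 0.000321), and Tyk2 was at -0.31 ± 0.0685 (adjusted p = 0.00317). Stat2 and Irf9, which belong to ISGF3, were at 0.22 and -0.03 and did not pass. With IL-4, Stat2 (0.68 in KO, 0.98 in WT) and Ifnar1 (0.38 and 0.59) rose in both genotypes, and Tyk2 was lower in KO than in WT (-0.24, adjusted p = 0.0486), a call that 9 of 17 alternatives ended (adjusted p up to 0.336).

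Of 6 other interferon regulatory factors, IFN-gamma raised 5 in each genotype: Irf1 by 5.14 in KO and 5.20 in WT, Irf7, the factor that amplifies type I interferon, by 4.67 and 4.9985, and Irf8, a myeloid factor, by 2.27 and 2.87. Under IFN-gamma, 3 of the 6 were lower in KO, against 13.6% of all genes. Irf8 had 32106, 29258 and 30268 normalized counts in KO, against 54516, 48996 and 49307 in WT (-0.74 ± 0.0693, adjusted p = 9.57e-07). Irf2, a repressor at ISRE-like sites, had 4204, 4679 and 4251 in KO, against 6061, 6387 and 6237 in WT (-0.51 ± 0.0912, adjusted p = 0.000552), and Irf1 was at -0.30 ± 0.109 (adjusted p = 0.04999). The call of Irf1 lay at the threshold, and 11 of 17 alternatives ended it (adjusted p up to 0.222, without the IFN-gamma library of WT animal 1), while Irf8 and Irf2 passed in all 17. Irf8 and Irf2 also had a smaller IFN-gamma response in KO, by -0.59 (adjusted p = 0.00107) and -0.49 (adjusted p = 0.0239). The call of Irf2 was lost in 6 of 23 alternatives (adjusted p up to 0.0724). A smaller response in KO was also called for Ifnar1 (-0.51, adjusted p = 0.0229) and the inhibitors Ptpn6 (-0.45, adjusted p = 0.03695) and Pias1 (-0.26, adjusted p = 0.0458). For the IFN-gamma marker Ciita the response was larger in KO (1.08, adjusted p = 0.0348). These 4 calls were lost in 7, 12, 15 and 9 of 23 alternatives, in that order. Of 8 tested genes of nucleic acid sensing outside the list, 6 rose and 1, Tlr7, fell with IFN-gamma in each genotype; none differed between KO and WT under IFN-gamma, and Mavs, the adaptor of the RNA sensors, was lower in KO under IL-4 (-0.30, adjusted p = 0.0290; up to 0.200 over the alternatives, 5 of which ended the call). Of 5 inhibitors of the pathway, 3 were lower in KO under IFN-gamma, against 13.6% of all genes, namely Pias1 (-0.33, adjusted p = 0.000318), Ptpn6 (-0.37, adjusted p = 0.00577) and Ptpn2 (-0.41, adjusted p = 0.0209). That of Ptpn2 was lost in 4 of 17 alternatives (adjusted p up to 0.128). Of 7 markers of the IFN-gamma response, all 7 rose with IFN-gamma in both genotypes. Their summed level with IL-4 was 9743 to 13484 in KO, against 2524 to 2947 untreated. In WT it was 9056 to 14489, against 2831 to 3251 untreated. Under IFN-gamma, 2 of the 7 were higher in KO (28.6%, against 14.3% of all genes) and 0 lower. The median difference of the 7 was -0.01, and 4 estimates lay below 0. The 2 called were Ciita, the master regulator of MHC class II (0.76, adjusted p = 0.0146), and Irgm1, an immunity-related GTPase (0.50, adjusted p = 0.0232). The calls of Ciita and Irgm1 were each lost in 3 of 17 alternatives, each leaving out 1 library (adjusted p up to 0.0667 and 0.122). Under IL-4, 1 of the 7 was higher in KO, against 3.46% of all genes.

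Marker genes of other cell types moved with genotype as well. In bulk RNA, fewer cells of a type and less RNA per cell cannot be told apart. With IFN-gamma, the summed level of the 7 stromal markers in the table was 204, 589 and 762 normalized counts (lowest, median and highest) in KO, against 150, 151 and 259 in WT, and that of 3 neutrophil markers was 29.4, 60.5 and 63.5 in KO, against 0.98, 1.13 and 4.72 in WT. The 3 plasmacytoid dendritic cell markers summed to 321, 347 and 367 in KO and 430, 458 and 492 in WT, and 3 markers of other dendritic cells to 379, 419 and 516 in KO and 741, 951 and 1004 in WT. Under IL-4 and untreated the dendritic cell markers stood the other way. Those of plasmacytoid cells summed with IL-4 to 192, 195 and 265 in KO, against 64.4, 88.5 and 159 in WT, and untreated to 45.9, 52.5 and 86.5 in KO, against 21.7, 25.3 and 39.9 in WT. Those of other dendritic cells summed with IL-4 to 102, 107 and 124 in KO, against 21.9, 23.0 and 47.0 in WT, and untreated to 10.6, 15.4 and 24.3 in KO, against 3.90, 4.51 and 6.59 in WT. None of these 4 pairs of groups overlapped. The plasmacytoid list was Siglech, Ccr9, Klk1, Cox6a2 and Pacsin1. That of other dendritic cells was Flt3, Zbtb46, Xcr1, Cd209a and Ccr7, and 3 genes of each list had values. Between untreated and IFN-gamma-treated WT macrophages, the plasmacytoid median went from 25.3 to 458 and the other from 4.51 to 951. The sums moved this much with treatment, so they cannot be read as numbers of dendritic cells. The stromal markers summed with IL-4 to 458, 961 and 1348 in KO, against 227, 311 and 785 in WT, and untreated to 367, 1111 and 1339 in KO, against 167, 256 and 446 in WT, with overlap in both. Neutrophil markers reached at most 26.9 in any library with IL-4 or untreated. Markers of B cells reached at most 60.6, of T and NK cells 14.7 and of erythroid cells 6.55 normalized counts in any library. The macrophage markers under IFN-gamma summed to 203470, 216246 and 218438 in KO and 244614, 249317 and 271666 in WT, and under IL-4 to 180780, 188056 and 201596 in KO and 224072, 233147 and 244128 in WT. The part of these markers in the differences between KO and WT was not tested.

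Some reads cannot be assigned with certainty. Parp9 and Dtx3l overlap by 682 bases on opposite strands, and Parp9 also overlaps Gm15564 on the opposite strand by 5854 bases, with a mean of 58860 normalized counts over all libraries, against 4808 for Parp9 itself. In all, 11 of the 38 genes overlap another gene of the table on the opposite strand, and the submitters' notes name no strand setting for the counting. Near-identical paralogs can share reads: Ifit3b averaged 1071 normalized counts in KO and 762 in WT with IFN-gamma, Phf11b 7693 and 9905, and Trim30d 6635 and 7728. The levels of Ifit3, Phf11d and Trim30a are therefore uncertain by reads of these copies. The same limit may hold for Slfn2 and Oas1a. With IFN-gamma, the KO mean of Slfn1 was 39.9% of WT, against 120% for Slfn8 and 129% for Slfn9. That of Oas1g was 74.5% of WT and that of Oas1h, a low gene, 177%. The share of reads that fell on a paralog was not tested for any member.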

How the data were processed

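Poly(A)-selected RNA of 18 macrophage cultures was sequenced on a NextSeq500 with a directional library kit, per the labels' protocols. The submitters' processing notes name STAR 2.5 for alignment to GRCm38, HTSeq 0.6 for gene counts, and DESeq2 and edgeR without versions. The deposited table holds a signal, normalized counts: read counts that the authors divided by 1 size factor per library. Recovering the step that 1 read is worth in each library turned 100% of values into whole reads (tolerance 0.1). The table has 21428 rows; 34 identifiers occur more than once, with identical values, and were used once. Recovered depth was 9.77 to 49.5 M reads, and its range limits the precision of low genes such as Ifnb1.

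Groups and animals came from the labels; cultures of a group are separate animals by their codes. The main test was limma 3.58.1 (R 4.3.3) on log2(normalized count + 1) with a mean-variance trend, 6 group means and 12 residual degrees of freedom. Genes with at least 10 normalized counts in at least 3 libraries were kept (14288, with all 38 members), and an adjusted p under 0.05 over all of them was called; fold changes are on this scale and understate low genes. Recovered reads were tested with edgeR 4.0.16 and DESeq2 1.42.0 as alternatives, because the deposited unit was normalized. The limma, edgeR and DESeq2 tests were tried on simulated counts, drawn without an animal effect, for KO against WT under IFN-gamma only. The other comparisons and settings were not simulated. Confidence intervals are at 95% and use the moderated degrees of freedom. The same animals enter each treatment: deviations from group means correlated at r = 0.0036 to 0.243 over 18 same-animal pairs, 13 of them over 0.1. Positions in the files matched GENCODE M21 for 37 of 38 members. Promoters came from RefSeq.

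The 38 members and all gene lists were chosen with earlier results of these data known. All members may be named; full statistics are given for up to 6 called members with the largest change in each direction (higher group's mean at least 100), for Isg15, Ifit1, Mx1, Rsad2, Oas1a and Usp18 between KO and WT, for the 5 smallest p-values where none passed, and for up to 3 called genes per pathway list. The FPKM values the notes mention were not used here.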

Additional observations from a re-analysis of the deposited data

Results flagged for a closer look

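The response to IFN-gamma differed between genotypes, by the test of that difference in limma, for 2 of the 38 genes. The log2 response of Ifi27l2a was smaller in KO than in WT by -0.6574 (1.27 in KO and 1.93 in WT, adjusted p = 0.0303). The log2 response of Slfn2 was larger in KO than in WT by 0.4178 (1.96 in KO and 1.54 in WT, adjusted p = 0.0476). Groups of 3 libraries are too small for a test of single outlying samples.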

How the results depend on the processing

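With IFN-gamma, 38 of 38 genes rose in both genotypes under every alternative; the median was 2.469 in KO and 2.336 in WT after quantile normalization, and 2.711 in KO without KO animal 1. Omitting the 3 libraries of that animal was chosen after seeing the data. Between KO and WT under IFN-gamma, 1 gene was lower without the filter on low values, with quantile normalization, with TMM factors and without KO animal 1; under IL-4, 0 were higher without the filter, with only the groups compared, with TMM factors and without KO animal 1. The difference in IFN-gamma response gave 2 larger and 2 smaller with DESeq2 and with only the groups compared, 0 larger without the filter, 0 smaller with quantile normalization, and 0 larger and 2 smaller without KO animal 1. The replicate block (animal for treatments) gave 2 smaller IFN-gamma responses and 1 gene lower with IL-4 in KO, and changed no call other than those of Samhd1, Rtp4, Trim21, Mx1 and Xaf1. Between KO and WT the number joins different animals (r = -0.212 to 0.104 over 9 pairs, 1 over 0.1), and that block changed no member's call. The cause of these changes was not tested.

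Signs turned, none of them past the threshold, without KO animal 1: untreated Mx1 0.1147 and Rsad2 0.1111, Oas1a -0.0471 under IFN-gamma, and under IL-4 Ifit1 0.3183, Mx1 0.1646, Rsad2 0.3072 and Oas1a 0.0082. Ifit1 under IL-4 was 0.0238 with DESeq2 and 0.0341 with edgeR. Leaving out each library in turn gave, for IL-4 in KO, 10 to 25 genes higher, 0 to 1 lower and medians of 0.1574 to 0.5698; for IL-4 in WT, 0 to 1 lower and medians of 0.3114 to 0.5559. It gave 0 to 1 larger and 0 to 2 smaller IFN-gamma responses; between KO and WT, 2 to 4 higher and 1 to 2 lower under IFN-gamma, and 0 to 1 in each direction under IL-4. Single genes ranged, KO over WT, untreated: Ifit1 -0.0387 to 0.2007, Mx1 -0.2939 to 0.1147 and Rsad2 -0.1388 to 0.1111; under IFN-gamma: Oas1a -0.1404 to 0.1357; under IL-4: Ifit1 -0.2567 to 0.3183, Mx1 -0.5 to 0.1646, Oas1a -0.1741 to 0.0082 and Rsad2 -0.3215 to 0.3072.

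Over all genes, counts of calls moved by more than 1.5 times for KO against WT untreated (283; 608 with DESeq2, 971 with only the groups compared, 137 without KO animal 1) and under IL-4 (941; 128 with only the groups compared, 397 without KO animal 1), for the IFN-gamma response difference (1307; 2073 with the block, 694 without KO animal 1), for the IL-4 response difference (1; 21 with DESeq2, 3 with a pseudocount of 5, 2 without the filter or with quantile normalization, 12 with the block) and for IL-4 in KO (4318; 2847 without KO animal 1). Leaving out 1 library gave 124 to 135 untreated calls without the KO library of animal 1 or 3 or the WT library of animal 2 or 3, 497 under IL-4 without that of KO animal 1, and 760 to 849 IFN-gamma response differences without the untreated library of KO animal 2 or 3 or of WT animal 2 or 3; the IL-4 response difference gave 1 to 3 calls.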
